A study of Ovis aries with 2 samples.

Results

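Among the cells of the sheep anterior pituitary, 405 of 29621 kept barcodes carried secretagogin (SCGN, gene 101115915) and chromogranin A (CHGA, gene 101114907) without passing a limit on PRL, GH, LHB, POMC or TSHB, and they are called the SCGN and CHGA cells here. A kept barcode had at least 500 genes and 1000 unique molecular identifiers (UMIs, which count captured RNA molecules). A member had at least 2 SCGN UMIs making up at least 0.03% of its UMIs, CHGA at 0.3% or more, PRL under 25%, GH under 10%, LHB under 0.3%, and POMC and TSHB each under 1%. The members were chosen by these measured values, so SCGN, CHGA and the 5 hormone genes are described below and counted in no comparison. The material was the anterior lobe of Hu sheep, a Chinese breed, taken at 3 months of age and at 6 months of age and dissociated with collagenase. Each age is 1 droplet library. The labels give no treatment, sex or number of animals for either library, so age and library cannot be told apart and no p-value is given. The 3-month library held 332 members of 16368 kept barcodes, or 2.03% (95% exact binomial interval 1.82 to 2.26), and the 6-month library held 73 of 13253, or 0.551% (0.432 to 0.692). All intervals cover counting error only.

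Pituitary endocrine cells store hormones in dense-core granules, whose matrix is built by granins such as CHGA, CHGB and SCG2. SCGN is an EF-hand calcium-binding protein of neuroendocrine cells that takes part in regulated secretion. The glycoprotein hormones LH, FSH and TSH share 1 alpha subunit, CGA, and differ in their beta subunits LHB, FSHB and TSHB. Gonadotrophs make LH and FSH, thyrotrophs make TSH, and corticotrophs make ACTH from POMC under the transcription factor TBX19. Around the stalk, cells of the pars tuberalis carry CGA, and in sheep they are the pituitary site of the melatonin receptor MTNR1A, with TSHB and EYA3 following day length. The labels do not say whether any of that tissue stayed with the dissected lobe.

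The comparators were barcodes with POMC at 1% of UMIs or more (the corticotroph gate, 158 at 3 months and 10 at 6 months) and barcodes with LHB at 0.3% and CGA at 3% or more (the gonadotroph gate, 1334 and 280). Members held a median of 7508.5 UMIs at 3 months and 7642 at 6 months, against 3316.5 and 1735.5 in the corticotroph gate and 11534 and 18520 in the gonadotroph gate. The 3-month corticotroph gate carried TBX19 (195 UMIs, or 230 CPM, the UMI count scaled to a common library size by the TMM method). The 6-month corticotroph gate held only 24263 UMIs in all, with 5 of TBX19. It also did not group by its other genes: 61.3% of the nearest neighbours of its 10 barcodes were cells with PRL at 25% or more, and 1.33% were of its own gate. Counts of genes against corticotrophs are therefore given with and without it. The libraries shared 81 barcode sequences, of which 1 was a member in the 3-month library and another a member in the 6-month library. Scrublet, a doublet caller, marked 23 members at 3 months (6.93%) and 4 at 6 months (5.48%), near the 5.62% and 4.68% of all kept barcodes, and they were kept.

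The label under which these cells were picked, cells without hormone identity, did not hold for the glycoprotein alpha subunit. CGA (gene 443538), which the rule did not use for the members, was detected in every member. It made up a median of 4.51% of a member's UMIs at 3 months, from 0.387% to 24.2%, and 3.15% at 6 months, from 0.463% to 9.57%. Endothelial cells (2053 and 621, gated on summed markers such as PECAM1), which serve as a measure of RNA free in the droplets, had medians of 0.0812% and 0.0270%, so the lowest member lay above the median endothelial cell in each library. The corticotroph gate had 0.0937% and 0.0567%, and the gonadotroph gate, for which CGA was a criterion, 13.6% and 20.1%. CGA reached 3% of UMIs in 246 of 332 members (74.1%) and 39 of 73 (53.4%), and fell below 1% in 13 and 2.

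The beta subunits were at 0 UMIs in many or most members. LHB, limited by the rule, was at 0 UMIs in 146 of 332 and 54 of 73 members. With each cell thinned to 2000 UMIs, LHB was seen in 24.1% of members at 3 months and 12.3% at 6 months, beside 26.3% and 10% of endothelial cells. Since the rule capped LHB, this closeness was partly set by the choice of members, and over all UMIs LHB made up 0.0265% and 0.0128% of members and 0.0172% and 0.00485% of endothelial cells. FSHB, which the rule did not use, was at 0 in 305 of 332 and 68 of 73 members. After thinning it was seen in 2.17% and 4.11% of members, against 47.0% and 28.5% of gonadotrophs and 0.998% and 0.182% of endothelial cells. FSHB was thus seen in far fewer members than gonadotrophs. TSHB was at 0 in 292 and 69 members, and after thinning it was seen in 5.57% and 1.37% of members and 1.18% and 0.727% of endothelial cells. POMC was at 0 in 293 and 70 members. PRL, the most abundant hormone RNA of the gland, had a median of 0.387% and 0.642% of UMIs in members, below the 0.791% and 1.13% of endothelial cells.

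**Figure D1:**
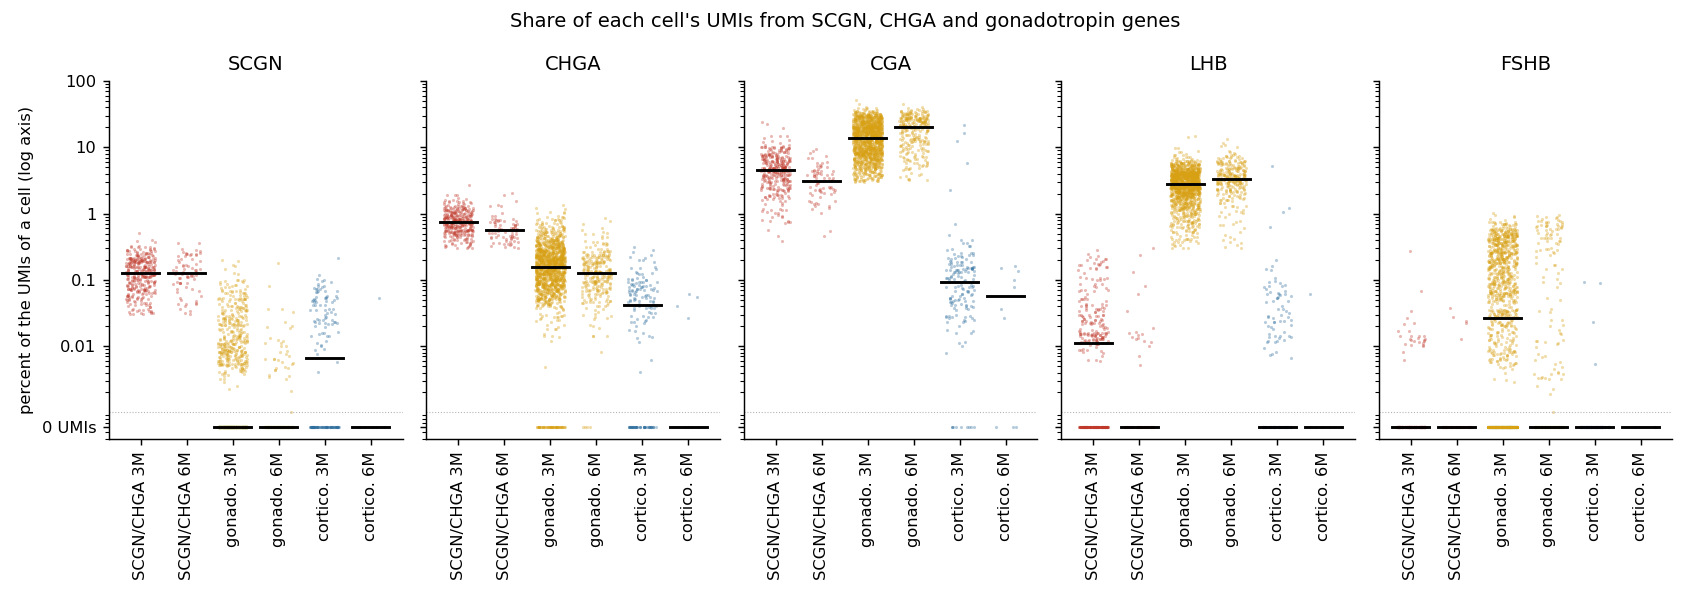
Share of each cell's UMIs from SCGN, CHGA, CGA, LHB and FSHB, on a log axis, in the SCGN and CHGA cells, the gonadotroph gate and the corticotroph gate of the 3-month (3M) and 6-month (6M) libraries. Each point is 1 cell, the black line is the median, and cells with no UMI of the gene sit below the dotted line. SCGN, CHGA and LHB chose the members. CGA did not, and its members' medians of 4.51% and 3.15% lie between those of the 2 comparator gates.

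The values near the limits of the rule show how sharply it divided the cells. SCGN made up a median of 0.128% of members' UMIs at 3 months and 0.129% at 6 months, and CHGA 0.749% and 0.570%. Just inside the CHGA limit, at 0.3 to 0.4%, lay 24 and 14 members. Just outside it, at 0.2 to 0.3%, lay 26 and 2 barcodes that met the other criteria. Barcodes that met every criterion but SCGN numbered 100 and 15, with median CGA of 3.29% and 2.77%. Of the 407 and 78 barcodes that passed SCGN and CHGA, the hormone limits left out 75 and 5, of which 55 and 3 were over the LHB limit.

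Members resembled each other in genes the rule did not read. In a space built from the 2000 most variable genes without the genes of the rule, hormone genes and ribosomal protein genes, 72.5% of the 15 nearest neighbours of members at 3 months were members, against 2.03% of the library. At 6 months the share was 63.7%, against 0.551%. Most of the other neighbours at 3 months were further cells with CGA at 1% or more (14.4%) or gonadotrophs (8.11%, which is close to the 8.13% that gonadotrophs make up of the library). At 6 months 14.0% were other CGA cells, 10.5% cells with PRL at 25% or more, and 2.28% gonadotrophs. Corticotrophs made up 0.0602% and 0.0913% of members' neighbours. Own-gate neighbours were in the majority for 261 of 332 members (78.6%) and 47 of 73 (64.4%). With CHGA at 0.6% or more the 6-month share of own-gate neighbours was 27.5%, while other CGA cells, which then include the members left out, came to 47.9% of neighbours.

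**Figure D2:**
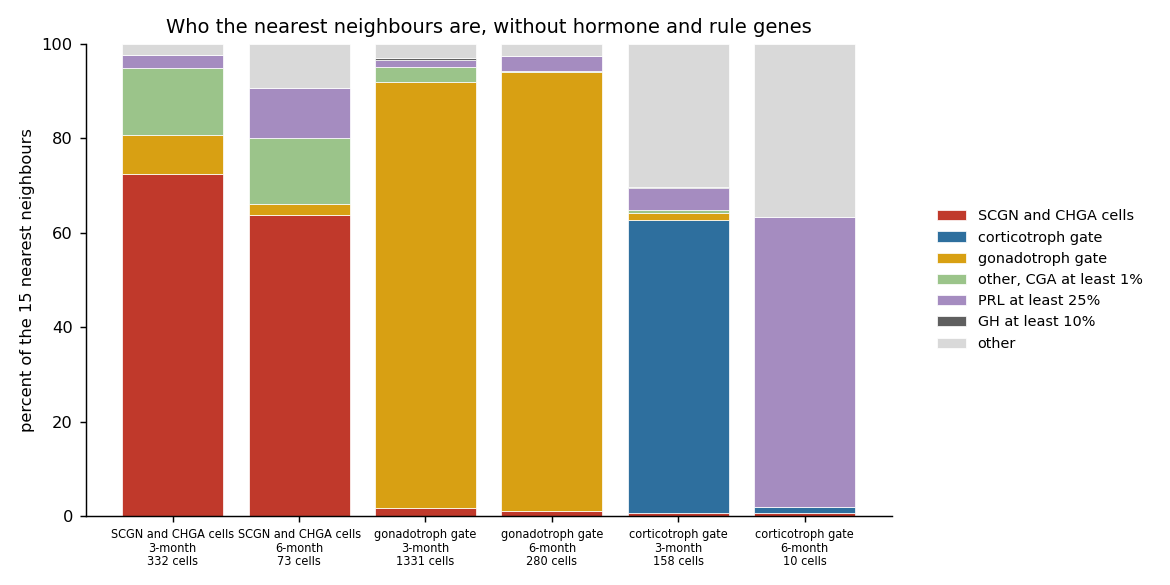
Make-up of the 15 nearest neighbours, in percent, for the cells of each gate and library, in a space without hormone genes and genes of the rule. Members' own gate accounts for 72.5% of their neighbours at 3 months and 63.7% at 6 months, and the corticotroph gate of the 6-month library has 1.33%.

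Several transcription factors of the CGA-positive line stood in members at levels nearer those of gonadotrophs than of corticotrophs. GATA2, a factor of gonadotrophs and thyrotrophs, stood at 135 CPM in members at 3 months and 105 at 6 months, against 70.6 and 60.0 in gonadotrophs and 2.36 in 3-month corticotrophs. FOXL2, which acts on the CGA and FSHB promoters, stood at 120 and 126 CPM, against 139 and 71.4 in gonadotrophs and 8.27 in 3-month corticotrophs. ISL1, a LIM-homeodomain factor of the same line, stood at 77.0 and 63.2, against 113 and 84.1, and 2.36. None of GATA2, FOXL2 and ISL1 was 2-fold apart from gonadotrophs in both libraries with TMM scaling. With UMI totals GATA2 passed that limit, with log2 ratios of 1.44 and 1.51, and the 3-month ratio of FOXL2 turned from -0.21 to 0.30. PITX1, which all pituitary endocrine lines share, was at 301 and 362 CPM in members and 269 in 3-month corticotrophs.

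TBX19, CRHR1 and POU1F1 were low in members, while the corticotroph markers as a list went both ways. Of 9 listed, 6 had enough UMIs at 3 months, of which 3 (TBX19, CRHR1 and PCSK1) were at least 2-fold lower than in corticotrophs and 2 (NEUROD1 and RXRG) higher. Over all genes tested in that library, 15.1% were higher and 7.11% lower. Over both libraries 2 of the markers were tested and NEUROD1 was higher, beside 4.3% of all genes. TBX19 had 1 UMI in the 332 members and 0 in the 73, which leaves it below 3 UMIs in each library, against 195 in the 158 corticotrophs of the 3-month library. CRHR1, the corticotroph receptor for CRH, had 2 and 1 UMIs in members and 103 CPM in 3-month corticotrophs. POU1F1, the factor of lactotrophs, somatotrophs and thyrotrophs, had 22 and 5 UMIs, or 8.19 and 7.71 CPM, where all kept barcodes together had 131 and 189. Here and below, CPM of all kept barcodes are scaled by UMI totals without TMM, unlike those of the gates. NR5A1, the gonadotroph factor known as SF-1, had 2 and 0 UMIs in members and stood at only 2.69 and 0.277 CPM in gonadotrophs, so it did not separate the gates here.

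**Figure D3:**
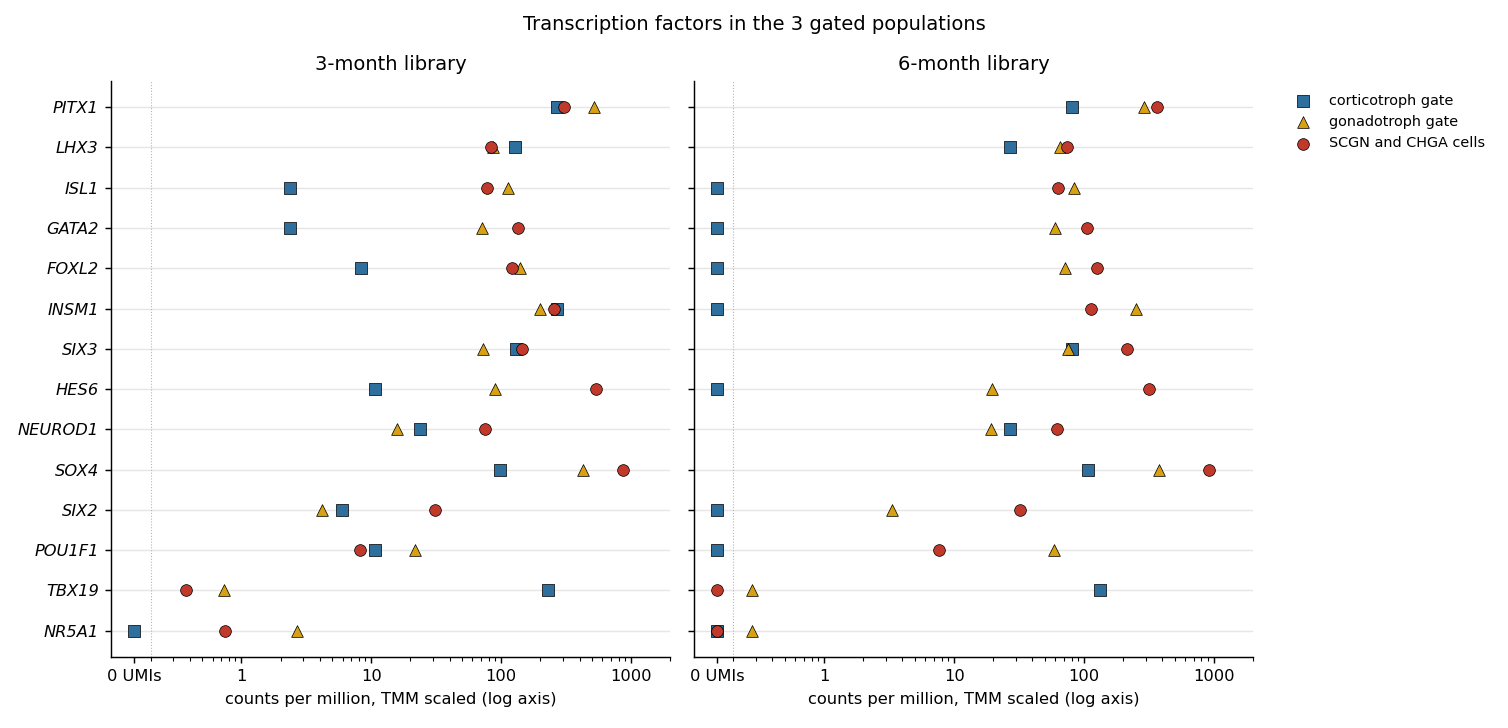
Level of transcription factors, in CPM with TMM scaling on a log axis, in the SCGN and CHGA cells (circles), the gonadotroph gate (triangles) and the corticotroph gate (squares), by library. Points at the left edge had no UMI, and the 6-month corticotroph gate rests on 10 barcodes. GATA2, FOXL2 and ISL1 of members lie near those of gonadotrophs, HES6, NEUROD1 and SOX4 lie above them, and TBX19 lies at or near 0, with TMM scaling throughout.

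Genes higher in members than in gonadotrophs included a group of neuroendocrine and precursor-type factors. A gene was counted as higher or lower when the summed UMIs of the gates were at least 2-fold apart in the same direction in each library, with at least 20 UMIs in the higher gate and at least 0.5 of the level of all kept barcodes there. By this count 146 of 10414 genes (1.4%) were higher in members than in gonadotrophs and 465 (4.47%) were lower. Of 38 endocrine lineage factors listed, 26 had enough UMIs, of which 5 were higher and 2 lower, and their median log2 ratio was 0.33 and 0.42, beside -0.06 and -0.13 over all genes tested.

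HES6 (gene 105601964), which counteracts the Notch effector HES1, stood at 537 CPM in members at 3 months and 316 at 6 months, against 89.4 and 19.6 in gonadotrophs, log2 ratios of 2.59 (95% interval 2.47 to 2.70) and 4.01 (3.61 to 4.42). NEUROD1, a helix-loop-helix factor known from corticotrophs and neurons, stood at 75.5 and 61.7 CPM against 15.7 and 19.1. SOX4, an HMG-box factor of immature cells, stood at 865 and 908 CPM against 426 and 378, just past the 2-fold limit with log2 ratios of 1.02 and 1.26. SIX2, a homeobox factor, stood at 30.9 and 32.4 CPM against 4.16 and 3.32. These factors were thus higher in members of each library. The 2 lower factors were NEUROD4 (9.67 and 13.9 CPM against 52.4 and 45.9) and the estrogen receptor ESR1 (7.81 and 3.08 CPM against 258 and 112). Thinned to 2000 UMIs, HES6 was seen in 51.1% and 32.9% of members, in 11.4% and 2.59% of gonadotrophs and in 1.18% and 0.909% of endothelial cells.

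Stem-cell and cell-cycle genes gave a mixed picture. SOX2, the factor of pituitary stem cells, was at 14.9 and 12.3 CPM in members and 70.9 and 54.5 in all kept barcodes. SOX9 differed between the libraries, at 27.5 CPM at 3 months and 75.5 at 6 months, with 25.1 and 16.3 in all kept barcodes. MKI67, a marker of dividing cells, had 0 UMIs in members of each library, which allows up to 1.12 CPM at 3 months and 4.62 at 6 months, and TOP2A had 2 and 0. Of 16 progenitor and Notch genes, 12 were tested against gonadotrophs, of which 2 were higher, HES6 among them, and 1 lower, the Notch ligand JAG1. Over all genes 1.4% were higher and 4.47% lower. With UMI totals 2 of the 12 were higher and 0 lower.

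Hormone, receptor and granule genes of gonadotrophs were lower in members. Of 8 gonadotroph markers listed, 4 were tested and 3 (FSHB, GNRHR and CHGB) were lower, beside 4.47% of all genes tested. LHB divided members from gonadotrophs, so lower levels of genes that vary with LHB could be partly set by the choice of cells. How much of these differences, and of those in the granins below, followed from that choice was not tested. FSHB stood at 22.7 CPM at 3 months and 13.9 at 6 months, against 2036 and 1649 in gonadotrophs, log2 ratios of -6.49 (-6.87 to -6.13) and -6.89 (-8.02 to -5.97). GNRHR, the receptor for the hypothalamic hormone that drives gonadotrophs, stood at 10.05 and 17.0 CPM against 462 and 480, log2 ratios of -5.52 and -4.82. TGFBR3L, a gonadotroph co-receptor for inhibin B, stood at 55.8 and 32.4 CPM against 3568 and 3685. The binding proteins of insulin-like growth factors were lower too, IGFBP3 with log2 ratios of -6.73 and -7.78 and IGFBP2 with -4.11 and -4.07. PGR, the progesterone receptor, stood at 14.1 and 3.08 CPM against 41.9 and 91.3. NPPC, the C-type natriuretic peptide gene, stood at 9.68 and 6.17 CPM against 144 and 3268.

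Although CHGA chose them, the members were lower than gonadotrophs in its fellow granins SCG2 and CHGB. SCG2 stood at 363 CPM at 3 months and 205 at 6 months, against 11152 and 17027 in gonadotrophs, log2 ratios of -4.94 (-5.03 to -4.85) and -6.38 (-6.63 to -6.13). CHGB stood at 235 and 182 CPM against 6617 and 4127, log2 ratios of -4.82 and -4.50. Neither was 2-fold lower than in corticotrophs in both libraries, with log2 ratios of -0.88 and -1.38 for SCG2 and a 6-month ratio of -0.04 for CHGB. After thinning, SCG2 was seen in 29.7% and 21.9% of members and in 9.79% and 4% of endothelial cells. Of 31 genes of regulated secretion, 28 were tested against gonadotrophs, of which 7 were lower (CHGB, SCG2, RESP18, SYT1, SYT7, RAB27B and SV2C) and 3 higher (RAB3B, STX1A and CADPS), against 4.47% and 1.4% of all genes. With UMI totals 6 were lower and 5 higher. RAB3B, a small GTPase of granule docking, stood at 172 and 154 CPM against 42.4 and 13.6. CADPS, which primes dense-core granules for release, stood at 80.4 and 81.7 CPM against 32.8 and 23.0. SNAP25 and VAMP2 of the fusion machinery were not 2-fold apart from gonadotrophs in both libraries, with SNAP25 at 135 and 125 CPM against 131 and 193. Of 7 prohormone-processing genes tested, 1 (QPCT, glutaminyl cyclase, lower with 2 UMIs of members in each library) was 2-fold apart in both, and PCSK1, the convertase that cuts POMC, stood at 72.6 and 66.3 CPM in members, 49.2 and 507 in gonadotrophs and 189 in 3-month corticotrophs.

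**Figure D4:**
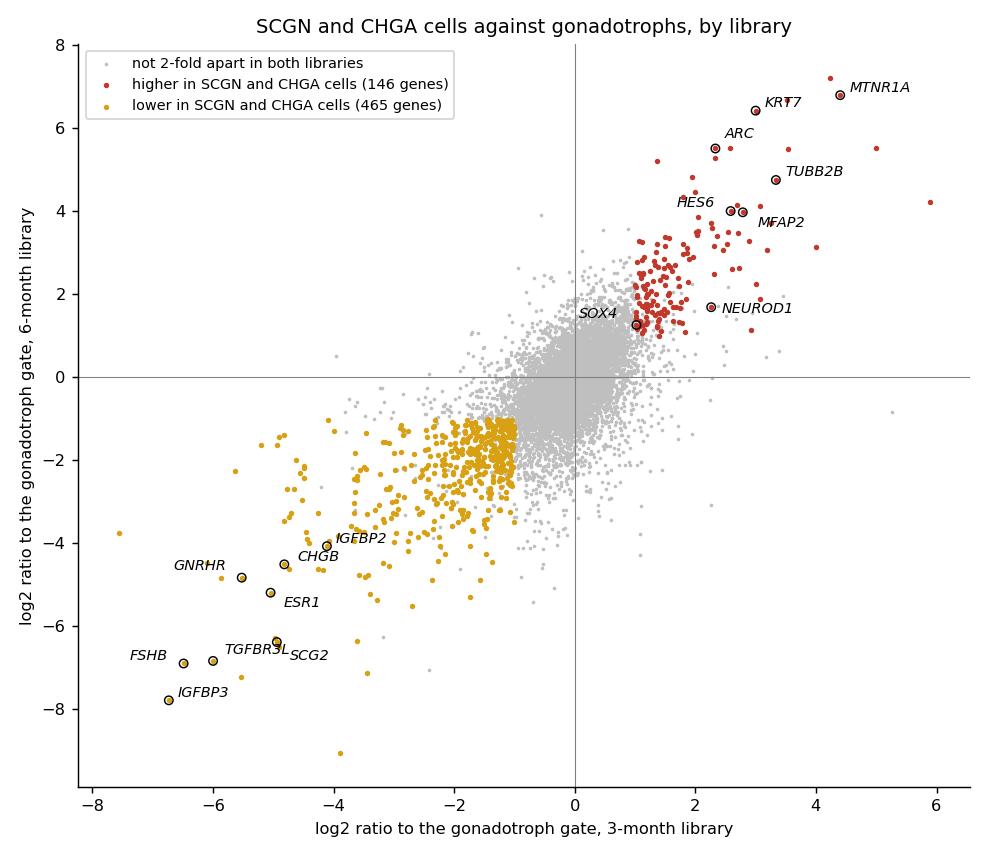
Log2 ratio of members to gonadotrophs at 3 months (horizontal axis) and at 6 months (vertical axis) for the 10414 genes with enough UMIs, with named genes circled. The 146 genes higher and 465 genes lower in both libraries are coloured. MTNR1A, KRT7 and TUBB2B lie at the upper right, and FSHB, IGFBP3, TGFBR3L and SCG2 at the lower left.

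MTNR1A (gene 443022), the melatonin receptor, stood at 94.9 CPM in members at 3 months and 92.5 at 6 months, against 4.49 and 0.830 in gonadotrophs, log2 ratios of 4.403 (3.98 to 4.85) and 6.80 (5.18 to 9.12). The 158 corticotrophs of the 3-month library had no UMI of it, which sets the log2 ratio at 4.74 or more when 3 UMIs are taken as the floor. All kept barcodes together had 2.76 and 0.701 CPM, and MTNR1A was seen in 0.0623% of thinned endothelial cells at 3 months and in 0 of 550 at 6 months, which allows up to 0.545% (3 of 550). A list of pars tuberalis markers held 10 genes, of which TSHB belonged to the rule and CGA is described above. Of the other 8, 4 were tested against gonadotrophs and MTNR1A alone was higher in both libraries. Over all genes tested, 1.4% were higher and 4.47% lower. EYA3, a transcriptional coactivator, stood at 93.04 CPM against 35.9 in gonadotrophs at 3 months and at 26.2 against 36.0 at 6 months. TAC1, the substance P precursor, stood at 176 CPM against 4.57 and then 30.8 against 54.5. CCK had 5 and 0 UMIs in members and RASD1 had 0 in each library.

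Surface, cytoskeletal and calcium-handling genes were also among those higher in members than in gonadotrophs. KRT7, a keratin of simple epithelia, stood at 138 and 214 CPM against 17.2 and 2.49 in gonadotrophs. TUBB2B, a tubulin of young neurons, stood at 362 and 404 CPM against 35.9 and 14.9, with log2 ratios of 3.34 and 4.76. MFAP2, a microfibril protein, stood at 464 and 432 CPM against 67.3 and 27.4. CD24, a surface glycoprotein of immature epithelial and neural cells, stood at 221 and 217 CPM against 33.6 and 19.4. Of 22 listed genes of cell adhesion and axons, 14 were tested, of which 1 was higher (DCC) and 1 lower (UNC5D). Outside that list, the contactin CNTN3 stood at 154 and 139 CPM against 13.3 and 3.04, and the netrin relative NTNG1 at 144 and 170 against 12.6 and 1.66. DCC, the netrin receptor, stood at 79.6 and 43.2 CPM against 9.95 and 9.13. Of 25 calcium genes 18 were tested, and HPCA, NCS1 and CAMK2N1 were higher while the IP3 receptor gene ITPR1 was lower, or 3 and 1 of 18 beside 1.4% and 4.47% of all genes. HPCA, or hippocalcin, a neuronal calcium sensor, stood at 89.7 and 77.1 CPM against 15.01 and 1.66. Of 28 listed genes of neuronal excitability, 16 were tested, with medians of -0.26 and -0.56. The glutamate receptor subunit GRIA2 was the 1 higher, at 64.0 and 38.5 CPM against 25.6 and 5.53, and the sodium channel genes SCN3A and SCN3B were lower. DDC, the decarboxylase of monoamine synthesis, stood at 16.4 and 49.3 CPM against 7.67 and 9.40. Of 10 general neuron markers tested, 0 were higher and 4 (SYT1, STMN2, NEFL and NEFM) were lower.

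The members' balance of higher to lower genes against gonadotrophs depended on scaling. With library totals in place of TMM the counts were 542 higher and 212 lower, with totals that leave out hormone genes 267 and 317, and with the mean of per-cell CPM 503 and 213. Higher genes were thus 23.9% of all those called with TMM and 71.9%, 45.7% and 70.3% in the others. With each library alone the counts were 524 of 12779 genes higher (4.1%) and 956 lower (7.48%) at 3 months, and 558 of 10476 (5.33%) and 1554 (14.8%) at 6 months. The median gene moved from -0.06 and -0.13 to 0.45 and 0.58 with totals, so ratios near 2-fold, such as that of SOX4, are to be read against that shift.

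Against corticotrophs, the genes higher in members again included HES6, MFAP2, TUBB2B and SOX4. By the rule over both libraries, 208 of 4839 genes (4.3%) were higher in members and 8 (0.165%) lower. A lower call needs at least 20 UMIs in the 6-month corticotroph gate, which held 24263 UMIs in all. Few genes could therefore be called lower, and with no minimum count 208 were higher and 187 lower. In the 3-month library alone, with 158 corticotrophs, 1502 of 9971 (15.1%) were higher and 709 (7.11%) lower, while the 6-month library alone gave 1112 (22.9%) and 21 (0.433%) of 4847. HES6 stood at 537 CPM in members against 10.6 in 3-month corticotrophs, a log2 ratio of 5.66 (4.73 to 6.79). In the 6-month corticotroph gate HES6 had no UMI, which sets the ratio there at 1.98 or more. MDK, a growth factor of developing tissues, stood at 369 CPM against 26.0, and SOX4 at 865 against 98.1. Of 18 lineage factors tested, 6 were higher (among them NEUROD1, NR4A1, HES6 and SOX4) and 0 lower, with median log2 ratios of 1.009 and 1.12 beside 0.12 and 0.21 over all genes tested. In the 6-month medians, genes with no UMI in corticotrophs, such as HES6, were set at 3 UMIs, or 80.1 CPM. These medians thus mix measured ratios with lower bounds. At 3 months alone 14 of 27 were higher and 2 lower. The 6-month ratio of NEUROD1 rests on 1 UMI in corticotrophs, and with barcodes of at least 1000 genes and 3000 UMIs it was -0.98, which ends its call. With those deeper barcodes the 6-month corticotroph gate was only 0.0182% of kept barcodes, against 0.0755% before. NNAT, an imprinted membrane protein of endocrine cells, was lower than in corticotrophs, at 3774 and 2776 CPM against 11997 and 5770, and CALY, a neuronal vesicle protein, was lower than in both comparators, at 274 and 136 CPM against 1163 in 3-month corticotrophs and 629 and 585 in gonadotrophs. CALY and the uncharacterized gene LOC101117955 were the 2 genes (0.0413%) lower than both, a count under the same limit on lower calls. With no minimum count 29 were lower than both. NR3C1, the glucocorticoid receptor through which cortisol restrains corticotrophs, stood at 14.5 CPM in members and 122 in 3-month corticotrophs.

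Stress-response genes moved with the comparison with corticotrophs. Of 21 listed immediate early and dissociation genes, called immediate early genes here, 17 were tested against corticotrophs and 9 were higher in members. Their median log2 ratio was 1.63 at 3 months and 1.73 at 6 months. Of 18 genes of the unfolded protein response and heat shock all were tested and 6 were higher (HERPUD1, ATF4, HSPA8, HSPH1, DNAJB1 and HSP90AA1), with medians of 0.61 and 1.41. As above, 6-month medians against corticotrophs take any count of 0, such as that of EGR3, as 3 UMIs. Over all genes tested, 4.3% were higher than in corticotrophs. At 3 months alone 12 of 20 immediate early genes were higher and 1 lower, and 6 of 18 stress genes were higher and 1 lower. The shares over all genes in that library were 15.1% higher and 7.11% lower. Against gonadotrophs, 4 of 20 immediate early genes were higher (EGR2, EGR3, ATF3 and KLF6) and 1 lower (MYC), while 0 of 18 stress genes were higher and 2 lower (DNAJB9 and SDF2L1). Over all genes, 1.4% were higher than in gonadotrophs and 4.47% lower. With UMI totals, 9 immediate early genes were higher than in gonadotrophs and 0 lower. Members were also the deeper cells, as given above, and the part of these values in the counts against corticotrophs was not tested. The part of dissociation in the immediate early genes was not tested either.

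A set of 41 genes, or 0.847% of 4839, was higher in members than in both comparators in both libraries. In the 3-month library alone 335 of 9951 genes (3.37%) were higher than both and 94 (0.945%) lower, and in the 6-month library alone 168 of 4847 (3.47%) and 8 (0.165%). Besides HES6, NEUROD1 and SOX4 the 41 included the growth factor MDK, the epithelial genes KRT7 and CLDN6, the cytoskeletal genes TUBB2B and TPM4, the serpin SERPINI2 and the calmodulin-kinase inhibitor CAMK2N1. They also included ARC and EGR4, and EGR2, EGR3, ATF3 and KLF6 of the immediate early and dissociation list. Whether dissociation with collagenase had a part in these was not tested. The 6-month corticotroph gate had 0 UMIs of ARC, EGR3, TUBB2B, HES6, CLDN6 and SERPINI2, 1 of KRT7, EGR4 and MDK, and 10 of ATF3. Log2 intervals against that gate reached down to 0.10 for EGR4 and 0.07 for CAMK2N1. The call of NEUROD1 ended with the deeper barcodes, as given above. ARC, a synaptic activity gene, stood at 893 and 1834 CPM in members, 122 in 3-month corticotrophs, 177 and 40.1 in gonadotrophs, and 62.0 and 34.0 in all kept barcodes. SERPINI2 stood at 83.4 and 193 CPM, with no UMI in either corticotroph gate and 29.8 and 61.4 CPM in gonadotrophs. Without barcodes marked by Scrublet, which takes 1 of the 10 corticotrophs of the 6-month library, 19 genes were higher than both. With corticotrophs at POMC of 5% or more 17 were higher and 0 lower, so the calls of CALY and LOC101117955 ended.

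Markers of other cell types differed by list and library. The 6 endothelial markers found in the table summed to 76.7 CPM at 3 months and 113 at 6 months, against 112 and 55.6 in gonadotrophs, and CLDN5 was at 0. At 6 months PECAM1, CDH5, ESAM and EMCN were each seen in 1 of 73 members. EGFL7 of the same list was seen in 91 of 332 members (27.4%) at 3 months and 17 of 73 (23.3%) at 6 months. In gonadotrophs EGFL7 was seen in 25.8% and 25%. The 6 macrophage markers summed to 118 and 111 CPM, against 167 and 328, and the 7 lymphocyte markers to 4.84 and 20.04. PECAM1 was seen in 3.10% and 1.37% of thinned members and 93.4% and 96.4% of endothelial cells. The stem and folliculostellate markers summed to 211 and 396 CPM in members, against 219 and 211 in gonadotrophs. Of this list 6 were tested against gonadotrophs, and 0 were higher and 0 lower, beside 1.4% and 4.47% of all genes. After thinning, KRT18 of that list was seen in 8.05% and 20.5% of members and 4.89% and 3.70% of gonadotrophs, and SOX9 in 4.33% and 11.0% of members and 3.21% and 1.85% of gonadotrophs. Others went the other way at 3 months. S100B was seen there in 0.619% of members and 1.52% of gonadotrophs, and SOX2 in 1.86% and 2.53%. At 6 months SOX2 was seen in 2.74% and 1.48%. COL1A2, a collagen chain on the fibroblast list, was higher than in both comparators, at 201 and 162 CPM against 34.5 and 14.4 in gonadotrophs and 74.5 and 21.7 in all kept barcodes. Its partner chain COL1A1 stood at 0.744 and 1.54 CPM, PDGFRB was at 0, and DCN was at 2.60 and 0.

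The members were not uniform, and those with and without MTNR1A differed in other genes. This split was chosen after values were seen and is a description. MTNR1A had a UMI in 67 of 332 members (20.2%) at 3 months and 13 of 73 (17.8%) at 6 months. A cell without a UMI may still hold the RNA. The depth was alike, with medians of 7833 UMIs in MTNR1A-positive and 7478 in other members at 3 months, and 8018 and 7592.5 at 6 months. At 6 months 78.3% of the 60 MTNR1A UMIs came from 5 cells.

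Members with MTNR1A had more RNA of PCSK1, DIO2 and SIX2 in each library. PCSK1 stood at 330 CPM of UMI totals with MTNR1A and 9.50 without at 3 months, a log2 ratio of 5.12 (4.43 to 5.89), and at 291 and 28.5 at 6 months, a ratio of 3.35 (2.39 to 4.39). DIO2, the deiodinase that makes active thyroid hormone, stood at 402 and 43.0 CPM, then 140 and 24.4, log2 ratios of 3.22 and 2.52. SIX2 had log2 ratios of 2.80 and 2.44. Few cells carried these values: at 6 months 5 cells held 74.4% of all PCSK1 UMIs of members, 73.1% of DIO2 and 61.9% of SIX2, and at 3 months 46.7%, 50.3% and 27.7%. The median MTNR1A-positive cell had 0 UMIs of each gene. TSHB, held under 1% of UMIs by the rule, stood at 445 and 27.5 CPM at 3 months, and 22 of the 40 members with a TSHB UMI had MTNR1A. Of all TSHB UMIs of members at 3 months, 5 cells held 60.3%. At 6 months TSHB rested on 11 UMIs, 9 of them in MTNR1A-positive cells. The granule genes SYT4 (1.85 and 2.61), SCG2 (1.20 and 2.15) and CHGB (0.68 and 1.81) and the clock gene DBP (1.23 and 2.22) also had positive log2 ratios in both libraries. EYA3 did so only at 3 months, at 3.00, with -0.60 and an interval that spanned 0 at 6 months. Of all EYA3 UMIs of members at 3 months, 5 cells held 40.8%. CGA differed little, with 0.13 and -0.22.

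The other genes compared did not all go the same way. HES6 had log2 ratios of MTNR1A-positive over other members of -0.73 and -1.26, SOX4 -0.42 and -1.07, TUBB2B -0.64 and -1.01 and NEUROD1 -1.06 and -2.98. KRT7 had -1.65 and -1.10, ARC -1.20 and -1.24, and SLC17A6, a vesicular glutamate transporter, -1.69 and -2.22. Members without MTNR1A thus had more RNA of these 7 genes in each library. At 6 months NEUROD1 rested on 1 UMI in the 13 MTNR1A-positive cells (interval -8.32 to -0.42) and SLC17A6 on 2 (-5.31 to -0.29). GATA2 had positive ratios whose intervals included 0, and FOXL2 had 0.49 and 1.28.

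**Figure D5:**
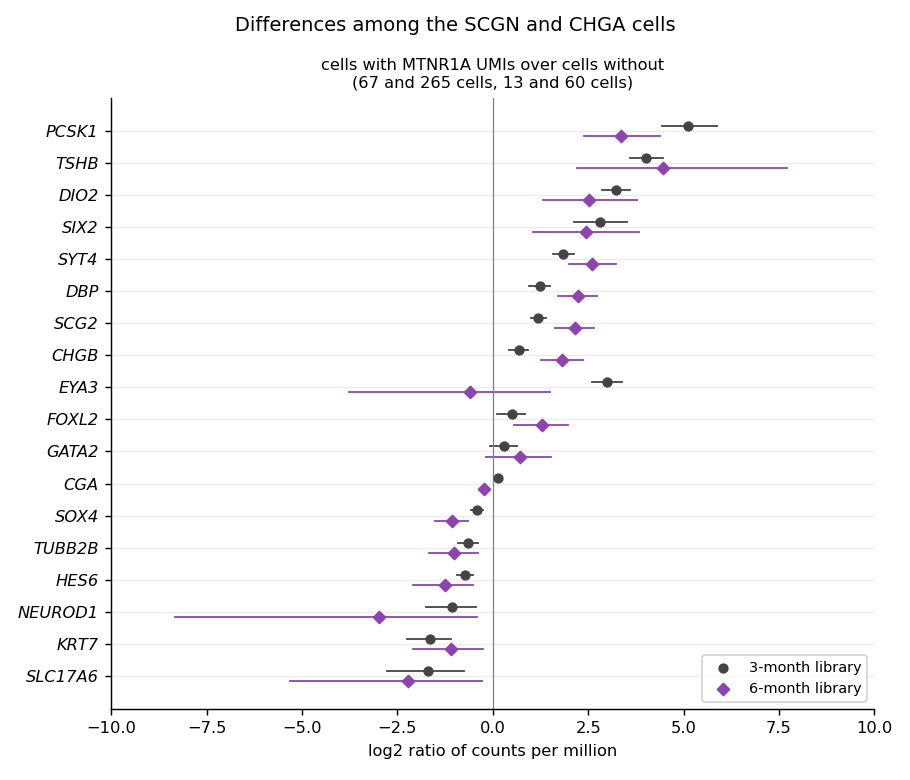
Log2 ratio of CPM between members with and without a UMI of MTNR1A, with 95% intervals that cover counting error only, for 18 genes in the 3-month and 6-month libraries. PCSK1, TSHB, DIO2, SIX2 and SCG2 lie to the right of 0 in both libraries, and KRT7, HES6, SOX4 and SLC17A6 lie to the left.

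Between the libraries, members at 6 months were lower in 756 of 9860 genes (7.67%) and higher in 192 (1.95%). With 1 library per age this is a comparison of libraries. MTNR1A, SOX4, TUBB2B and MFAP2 had log2 ratios of 6 over 3 months between -0.11 and 0.16, and each interval included 0. HES6 had -0.76 and CGA -0.64.

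Among the genes lower at 6 months were some of the immediate early and interferon lists. FOS stood at 5698 CPM at 3 months and 2059 at 6 months, and 7 of 20 immediate early genes tested were lower and none higher, with a median of -0.91 beside -0.07 over all genes tested. ARC, outside that list, was higher at 6 months, at the CPM given above. FOS also dropped in all kept barcodes, from 4808 to 2052 CPM. ISG15 stood at 215 and 26.2 CPM in members and at 332 and 99.8 in all kept barcodes, and 4 of 11 interferon genes tested were lower (among them ISG15, IFIT2 and MX1). Over all genes tested, 7.67% were lower. INSIG1, which answers to sterol levels, stood at 364 and 61.7 CPM, a log2 ratio of -2.56. The neuroendocrine factor INSM1 stood at 252 and 113 CPM, while in all kept barcodes it stood at 98.8 and 133. TAC1 stood at 176 and 30.8 CPM, with a UMI in 57 of 332 and 7 of 73 members, and 55% of its 20 UMIs at 6 months came from 1 cell. The histone gene H1-2, which has near-identical relatives, stood at 137 and 6.17 CPM.

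Among the genes higher at 6 months, GADD45B, a stress-induced gene, stood at 132 and 772 CPM in members and 173 and 280 in all kept barcodes, a log2 ratio in members of 2.55 (2.35 to 2.75). Of 18 genes of the unfolded protein response and heat shock 1 was higher, HSPA1A, beside 1.95% of all genes, and their median was 0.12. HMOX1, heme oxygenase, stood at 138 and 690 CPM, and 369 and 295 in all kept barcodes. Of the HMOX1 UMIs of members, 5 cells held 67.3% at 3 months and 44.2% at 6 months. HSPA1A, an inducible heat shock gene with a near-identical neighbour, stood at 188 and 786 CPM, but at 168 and 908 in all kept barcodes. The keratin pair KRT8 and KRT18 had log2 ratios of 2.05 and 1.90, against 303 and 189 CPM of KRT8 in all kept barcodes. At 6 months 5 cells held 40.9% of the KRT8 UMIs of members and 5 cells 40.2% of those of HSPA1A. CLDN6, a tight-junction gene, stood at 42.8 and 183 CPM and the melatonin-synthesis enzyme AANAT at 13.03 and 38.5, with 60% of its 25 UMIs at 6 months from 5 cells. PECAM1 also passed the limit, but its 21 UMIs at 6 months came from 1 member. With CHGA at 0.6% or more, which leaves 32 members at 6 months, 68 genes were higher in place of 192.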

How the data were processed

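Single-cell RNA of 2 libraries of Hu sheep anterior pituitary was used, 1 at 3 months and 1 at 6 months. Per the submitters' processing notes Cell Ranger 5.0.0 was named, and per the file headers of the matrices 5.0.1. For the genome build, none is given in the sources used here. Values as deposited are raw UMI counts per gene and barcode, made by the authors with no normalization, and the accompanying deposited entries are gene identifiers, symbols and barcodes. The files held 18961 and 15031 barcodes with 142479651 and 175239612 UMIs and none below 500 UMIs. Of 23141 genes, 22726 matched a RefSeq table (ARS-UI_Ramb_v3.0) used for names only, and 447 placeholder symbols were replaced. No column was left unmapped.

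A minimum of 500 genes and 1000 UMIs left 16368 and 13253 barcodes. Scrublet in scanpy 1.11.5 marked 920 (5.62%) and 620 (4.68%), which were kept except in an alternative. UMIs were summed per gate and library and scaled with TMM factors of edgeR 4.0.16 (R 4.3.3). Ratios carry exact conditional binomial 95% intervals (scipy 1.17.1) and shares exact Clopper-Pearson intervals, both of which cover counting error only. A count of 0 was set at 3 UMIs. No test was run, since each age is 1 library and cells are not replicates. Neighbours used 30 principal components (scikit-learn 1.9.0). Shares of cells with a UMI were compared after thinning to 2000 UMIs, which left out 9 and 0 members, 46 and 7 corticotrophs, 149 and 10 gonadotrophs and 449 and 71 endothelial cells. The split of members by MTNR1A and the values of all kept barcodes used CPM of UMI totals without TMM.

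Named were up to 12 genes higher and 12 lower per comparison, by the bound of the interval nearer 0, up to 20 higher than both comparators, and members of gene lists. The members and lists were chosen with earlier results of these data known. The scripts were checked on simulated data. The alternatives changed the limits of the gates, depth, doublets, scaling, the fold and the minimum count, and took each library alone. Some genes counted in the lists are not reported here. Listed genes not used here were APLN, CACNA1E, CD163, COX4I2, CYP2F3, GIP, HBA1, IAPP, IFIT1, OAS2, PCSK2, PLVAP, PRLR, SCG5, SYP, TENM2 and TUBB3.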

Additional observations from a re-analysis of the deposited data

Results flagged for a closer look

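In 4 genes the log2 ratio of the SCGN and CHGA cells to a comparator was past 2-fold in opposite directions in the 2 libraries, and these differences between the libraries were not tested. PTPRN, a granule membrane protein, had -1.63 against corticotrophs at 3 months and 1.47 at 6 months. NAB2, a corepressor of EGR factors, had -1.08 against corticotrophs at 3 months and 1.07 at 6 months. DIO2, the thyroid hormone deiodinase, had 2.25 against gonadotrophs at 3 months and -3.09 at 6 months, where gonadotrophs stood at 23.4 CPM and then 340. SSTR1, a somatostatin receptor, had 1.13 against gonadotrophs at 3 months and -1.52 at 6 months. The 6-month ratios to corticotrophs rest on 10 barcodes.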

How the results depend on the processing

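No paired analysis was possible because each age is 1 library and no test was run. For the same reason no replicate could be left out. The libraries taken alone were chosen after seeing the data. Members made up 1.69% of 3-month barcodes with SCGN at 3 UMIs and 0.06% or more, 1.42% with CHGA at 0.6% or more (0.241% at 6 months), and 2.69% of barcodes with 1000 genes and 3000 UMIs. With CHGA at 0.6% or more, 62.5% and 27.5% of neighbours were members, 84 genes were higher than in gonadotrophs, and 68 were higher at 6 than at 3 months. Against corticotrophs, genes higher numbered 120 with the deeper barcodes, 132 without Scrublet-marked barcodes, 105 with POMC at 5% or more, 120 with UMI totals, 100 with totals without hormone genes, 25 at 4-fold, and 1502 and 1112 in the 3-month and 6-month library alone. Genes lower numbered 3 with the deeper barcodes, 187 with no minimum count, 2 at 4-fold, and 709 and 21 in each library alone. Against gonadotrophs, 542 and 212 genes were higher and lower with UMI totals, 503 and 213 with per-cell means, 36 and 134 at 4-fold, 524 and 956 in the 3-month library and 1554 lower and 558 higher in the 6-month library. Genes higher numbered 267 with totals without hormone genes and 439 with no minimum count. Higher than both comparators were 23 genes with deeper barcodes, 19 without Scrublet-marked barcodes, 17 with POMC at 5% or more, 72 with per-cell means, 7 at 4-fold, and 335 and 168 in each library alone. Between ages, 691 genes were higher with no minimum count, and 25 higher and 141 lower at 4-fold. Of 2903 alternatives to single-gene ratios past 2-fold, 8 changed sign, 7 of them against the corticotroph gate of the 6-month library. These were CEBPD (0.30), NAB2 (-0.37) and SCG2 (0.080) with POMC at 5% or more, INSIG1 (-0.98) and NEUROD1 (-0.98) with the deeper barcodes, INSIG1 (-0.49) with per-cell means and SCG2 (0.43) without Scrublet-marked barcodes. The last was POU1F1 against 3-month gonadotrophs (0.094 with per-cell means). The 6-month corticotroph gate held 10 barcodes before these limits. Fewer remained with POMC at 5% or more, with the deeper barcodes and without Scrublet-marked barcodes. With the deeper barcodes it was 0.0182% of kept barcodes, against 0.0755% before. Ratios under 2-fold changed sign in 112 further alternatives, FOXL2 against 3-month gonadotrophs among them. Fewer cells or genes tested follow from the stricter limits, and for the other shifts the cause was not tested. At 26.7 CPM for 1 UMI, the 6-month corticotroph gate sets the depth limit.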
